A study of Homo sapiens with 10 samples.

Results

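The genes described here are inducible brakes of mitogen-activated protein (MAP) kinase signalling, together with ETV5, a transcription factor that this signalling induces. They were measured in the cell line PC3, which was established from a bone metastasis of a human prostate carcinoma. The brakes are the dual specificity phosphatases DUSP1, DUSP4, DUSP5, DUSP6 and DUSP10, the Sprouty genes SPRY2 and SPRY4, and the Sprouty-related genes SPRED1 and SPRED2. The 10 genes were taken by symbol from tables of 60558 genes, and all 10 were found, each in 1 row. PC3 cells labelled as wild type shared their culture for 3 days with adipocytes from human bone marrow (5 cocultivated libraries) or were grown without them (5 non-cocultivated libraries), and their polyadenylated RNA was sequenced. Each number from 1 to 5 marks a batch that holds 1 cocultivated and 1 non-cocultivated library. The labels give neither the donors of the adipocytes, nor how the 2 cell types were kept apart or separated, nor whether the libraries of a group came from separate cultures. The p-values therefore measure the spread between these libraries, part of which may be technical.

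Growth factor receptors switch on RAS, which passes the signal through RAF and MEK kinases to the kinase ERK. Active ERK induces its own inhibitors and the ETS factor ETV5. The transcripts of several DUSP, SPRY and SPRED genes and of ETV5 are therefore widely used as readouts of the pathway. DUSP proteins remove phosphate from ERK or from the stress kinases JNK and p38, whereas Sprouty and Spred proteins act further upstream, around RAS and RAF.

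The libraries held 39074949 to 51515712 expected counts, which is deep for 9 of the 10 genes (697 to 13495 counts in a library) and shallow for DUSP10 (19 to 47 counts). Epithelial keratin and adhesion markers summed to 751 to 842 TPM (transcript abundance corrected for length and library size) in cocultivated and 1058 to 1145 TPM in non-cocultivated libraries. Of 8 adipocyte markers, ADIPOQ and LEP reached at most 0.01 TPM in any library, and 5 had enough counts for the test described below. Of these 5, 2 were called as higher and 1 as lower with coculture. Among all genes tested, 17.9% were called as higher and 15.8% as lower. The summed level of the 8 was 268 to 517 TPM in cocultivated and 67.6 to 127 TPM in non-cocultivated libraries, and 16.8 to 22.4 against 15.5 to 21.7 TPM without FABP4, a fatty acid binding protein. The sums of 9 stromal, 8 haematopoietic and 6 endothelial markers were 1.29 to 2.26, 1.11 to 1.52 and 4.70 to 7.32 TPM in cocultivated libraries, against 4.69 to 5.92, 1.91 to 4.13 and 8.10 to 12.4 TPM in non-cocultivated libraries. The part of these marker levels in the results below was not tested. In such bulk RNA, fewer cells of a kind and less RNA per cell cannot be told apart.

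DUSP1 and ETV5 rose and SPRY4, SPRED2, DUSP6 and DUSP4 fell after coculture, while DUSP5, DUSP10, SPRY2 and SPRED1 did not pass the test. The test was edgeR's quasi-likelihood F test over all 15690 genes with enough counts, with Benjamini-Hochberg adjustment and a threshold of 0.05. All 10 genes passed the filter on low counts. Those counts of 2 higher and 4 lower stand against a background in which 33.6% of all genes tested were called, 17.9% as higher and 15.8% as lower. With library totals in place of the trimmed mean scaling, the genes called numbered 2216 higher and 3555 lower, against 2801 higher and 2478 lower with it. The median log2 fold change was 0.02 for the 10 genes and -0.01 for all genes tested. Their median absolute log2 fold change was 0.26, against 0.15 for all genes tested. Of the 10 genes, DUSP1 and SPRY4 alone changed by at least 2-fold, in opposite directions; 2.28% of all genes tested were called as higher and 1.8% as lower with a change of that size.

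**Figure D1:**
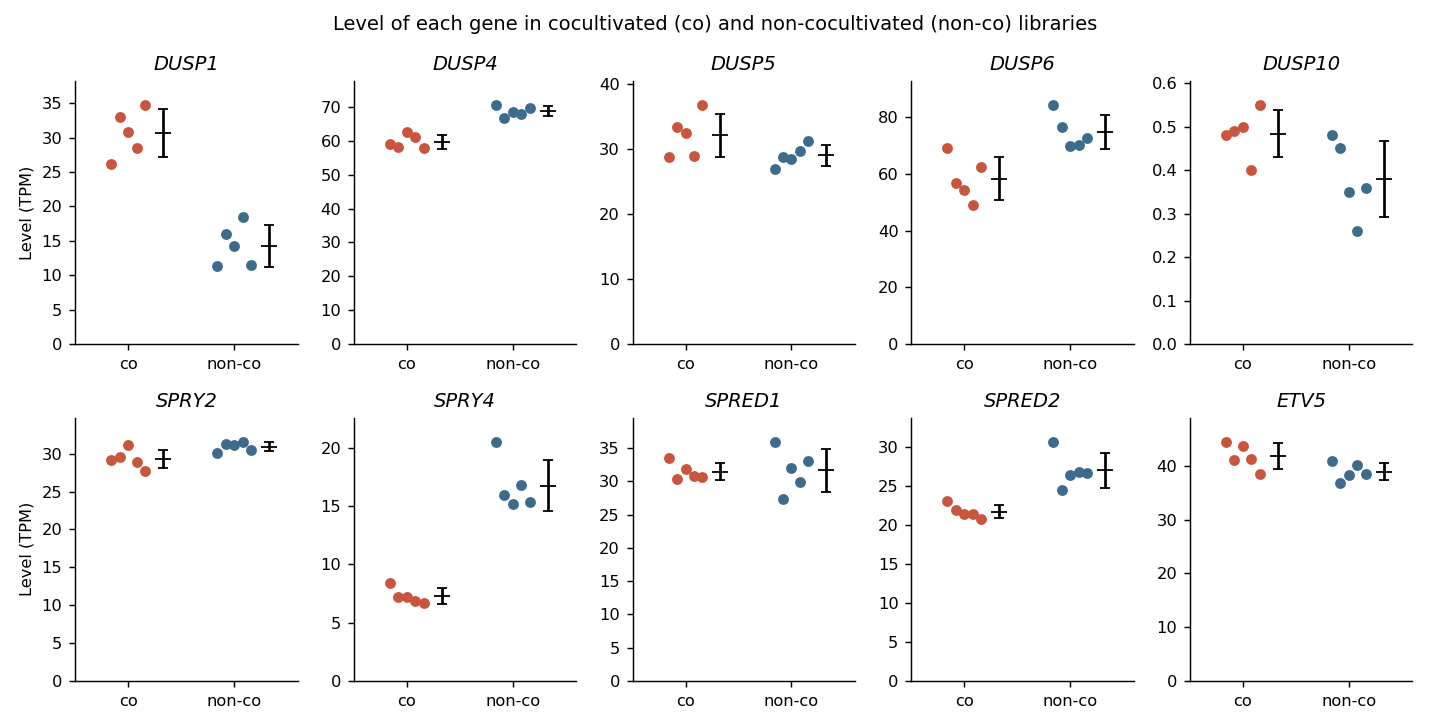
Level of each of the 10 genes in TPM (vertical axes, from 0) in the 5 cocultivated (co, red) and 5 non-cocultivated (non-co, blue) libraries, in batch order from left to right, with the mean and SD beside the points. DUSP1 lay at 26.2 to 34.7 TPM in cocultivated and 11.3 to 18.5 TPM in non-cocultivated libraries, and SPRY4 at 6.72 to 8.44 against 15.2 to 20.6 TPM, so neither overlapped.

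DUSP1 (ENSG00000120129) encodes a nuclear phosphatase that acts mainly on p38 and JNK and is itself an immediate early gene that growth factors, stress and glucocorticoids induce. Its level was 26.2, 33.03, 30.9, 28.4 and 34.7 TPM in cocultivated libraries 1 to 5, against 11.3, 16.1, 14.3, 18.5 and 11.5 TPM in non-cocultivated libraries 1 to 5. Every cocultivated library lay above every non-cocultivated one, and batch 5 held both the highest cocultivated value and one of the lowest non-cocultivated values. The mean was 30.7 ± 3.42 TPM with coculture and 14.3 ± 3.06 TPM without it (SD, n = 5 each). The log2 fold change was 1.18 ± 0.15 (SE), a 2.26-fold increase, with an edgeR adjusted p of 5.59e-05. Within the batches the log2 difference ranged from 0.69 in batch 4 to 1.77 in batch 5. Of all genes tested, 98.2% had a lower log2 fold change than DUSP1.

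DUSP4 (ENSG00000120875) and DUSP5 (ENSG00000138166) are the other nuclear phosphatases of the set, DUSP4 with ERK and JNK as substrates and DUSP5 specific for ERK. DUSP4 was at 58.9, 58.1, 62.6, 61.1 and 57.7 TPM in cocultivated libraries 1 to 5, against 70.5, 66.7, 68.6, 67.8 and 69.5 TPM in non-cocultivated libraries. The groups did not overlap, and the spread within each was small. The decrease was 8.44% (log2 fold change -0.13 ± 0.04, edgeR adjusted p 0.0385), and each of the 5 batches showed it. That call was lost without cocultivated library 2 or 3 or without non-cocultivated library 2, 3, 4 or 5, where the adjusted p was 0.0513 to 0.0868. It was kept, with larger changes, on log2(TPM + 0.1) values (-0.20, limma adjusted p 0.00132) and with library totals (-0.18, edgeR adjusted p 8.87e-04). The median log2 fold change of all genes tested was also lower in these 2 settings, at -0.08 and -0.06, against -0.01 in the main fit. DUSP5 was at 28.9, 33.4, 32.5, 29.03 and 36.8 TPM in cocultivated libraries, against 26.9, 28.7, 28.6, 29.8 and 31.3 TPM in non-cocultivated libraries. The groups overlapped, since cocultivated libraries 1 and 4 lay within the range of the non-cocultivated ones. Its log2 fold change of 0.23 ± 0.09 had an edgeR adjusted p of 0.0783 and an unadjusted 95% interval from 0.01 to 0.44. The direction was the same in all 5 batches, with log2 differences of 0.04 to 0.40, and with the batch as a block the adjusted p was 0.00503, so DUSP5 was then called as higher; under that block 44.4% of all genes tested were called. It was also called without cocultivated library 1 (adjusted p 0.0180). The log2 fold change was smaller and not called without cocultivated library 5 (0.15, adjusted p 0.146) and on log2(TPM + 0.1) values (0.14, limma adjusted p 0.157).

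DUSP6 (ENSG00000139318) encodes the cytoplasmic phosphatase specific for ERK, and its transcript is the member most often read as a gauge of ERK output. The values were 69.1, 56.7, 54.4, 49.1 and 62.4 TPM in cocultivated libraries 1 to 5, against 84.3, 76.7, 70.0, 70.1 and 72.5 TPM in non-cocultivated libraries. Both groups had high values in batch 1, and the highest cocultivated value, of batch 1, lay just below the lowest non-cocultivated one. The mean was 58.3 ± 7.67 TPM with coculture and 74.7 ± 6.01 TPM without it (SD, n = 5 each). This gave a log2 fold change of -0.29 ± 0.06 (edgeR adjusted p 0.00297), a decrease of 18.5%, and within the batches the log2 difference lay between -0.41 and -0.11.

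DUSP10 (ENSG00000143507), a phosphatase for JNK and p38, was the least abundant of the 10 genes. It stood at 0.48, 0.49, 0.50, 0.40 and 0.55 TPM in cocultivated libraries, against 0.48, 0.45, 0.35, 0.26 and 0.36 TPM in non-cocultivated libraries. The groups overlapped in TPM and also in counts scaled to library size, although this scaled count was higher with coculture in all 5 batches. In batch 1 both libraries had 35 counts before scaling. The log2 fold change of 0.42 ± 0.18 was not called (edgeR adjusted p 0.0932), and it rests on 27 to 47 counts in cocultivated and 19 to 35 counts in non-cocultivated libraries. Without cocultivated library 4 it was called (adjusted p 0.0465), and on log2(TPM + 1) values the difference was 0.11 (limma adjusted p 0.164).

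SPRY4 (ENSG00000187678), an inhibitor of receptor tyrosine kinase signalling upstream of ERK, fell more than any other of the 10 genes. The values were 8.44, 7.25, 7.22, 6.84 and 6.72 TPM in cocultivated libraries 1 to 5, against 20.6, 15.9, 15.2, 16.8 and 15.4 TPM in non-cocultivated libraries. All cocultivated libraries lay within a narrow band below 9 TPM, and batch 1 was the highest of both groups. The mean was 7.29 ± 0.681 TPM with coculture and 16.8 ± 2.20 TPM without it (SD, n = 5 each). Its log2 fold change was -1.10 ± 0.07 (edgeR adjusted p 1.39e-07), a decrease of 53.4%, and within the batches it lay between -1.24 and -0.94. Of all genes tested, 1.49% had a lower log2 fold change.

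SPRY2 (ENSG00000136158), which has the same kind of function, did not follow SPRY4. Its level was 29.2, 29.5, 31.1, 28.9 and 27.8 TPM in cocultivated libraries, against 30.1, 31.3, 31.1, 31.6 and 30.5 TPM in non-cocultivated libraries. The groups overlapped, the log2 fold change was -0.01 ± 0.05 (edgeR adjusted p 0.940), and its unadjusted 95% interval ran from -0.11 to 0.10. The sign depended on the libraries used, and SPRY2 was higher with coculture in 2 batches and lower in 3. The ratio of SPRY2 to SPRY4 counts within a library does not depend on how libraries are scaled. On the log2 scale that ratio was 0.82 to 1.14 in cocultivated and -0.41 to 0.07 in non-cocultivated libraries. The difference was 1.09 ± 0.10 (SE), higher in 5 of 5 batches, with an exact two-sided permutation p of 0.00794, the smallest that 5 against 5 libraries allow, and 0.0198 after Benjamini-Hochberg adjustment over the 5 pairs of family members compared.

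SPRED1 (ENSG00000166068) and SPRED2 (ENSG00000198369) encode membrane-bound inhibitors of RAS to RAF signalling; SPRED1 recruits the RAS inactivator neurofibromin. SPRED2 was at 23.0, 21.8, 21.3, 21.3 and 20.8 TPM in cocultivated libraries 1 to 5, against 30.6, 24.5, 26.4, 26.7 and 26.6 TPM in non-cocultivated libraries. No cocultivated library reached the lowest non-cocultivated one, and non-cocultivated library 1 was the highest. Its log2 fold change was -0.29 ± 0.05 (edgeR adjusted p 2.86e-04), a decrease of 18.4%. SPRED1 was at 33.5, 30.4, 31.8, 30.8 and 30.6 TPM in cocultivated libraries, against 36.0, 27.4, 31.9, 29.9 and 33.1 TPM in non-cocultivated libraries. Those groups overlapped fully, and the log2 fold change of 0.04 ± 0.04 (edgeR adjusted p 0.445) had an unadjusted 95% interval from -0.05 to 0.14. The log2 ratio of SPRED1 to SPRED2 counts was 1.21 to 1.298 in cocultivated and 0.84 to 0.96 in non-cocultivated libraries. It was thus higher with coculture by 0.34 ± 0.03 (SE; exact permutation p 0.00794, adjusted over the 5 pairs 0.0198). SPRY2 with SPRY4 and SPRED1 with SPRED2 were the 2 pairs whose ratios did not overlap between the groups.

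**Figure D2:**
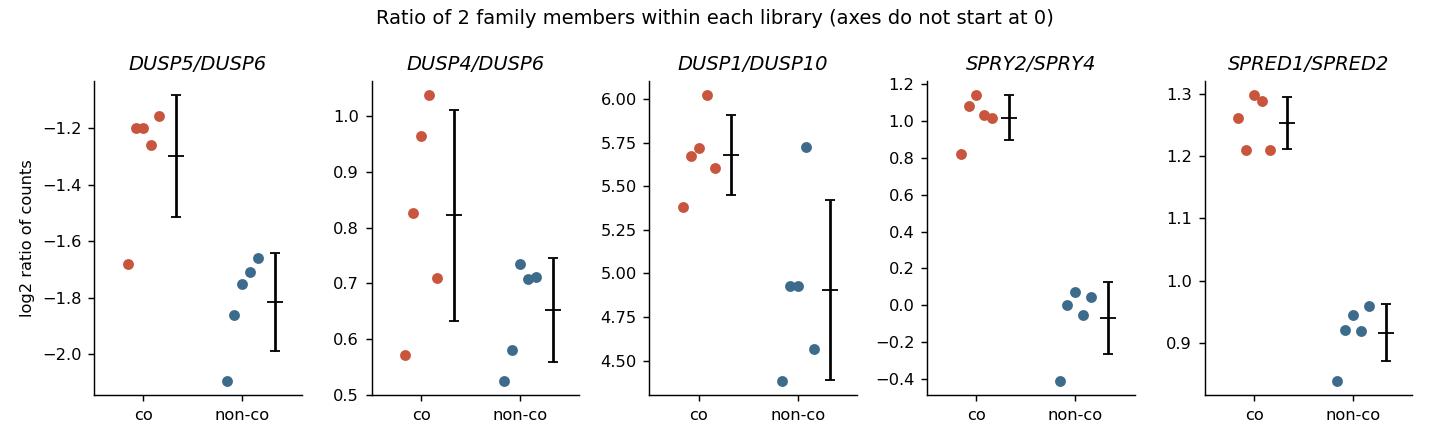
Log2 ratio of the expected counts of 2 family members within each library (vertical axes, not starting at 0), for 5 cocultivated (co, red) and 5 non-cocultivated (non-co, blue) libraries in batch order, with the mean and SD beside the points. The SPRY2/SPRY4 ratio lay between 0.82 and 1.14 in cocultivated and between -0.41 and 0.07 in non-cocultivated libraries, and the SPRED1/SPRED2 ratio between 1.21 and 1.298 against 0.84 and 0.96.

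Among the phosphatases, the log2 ratio of DUSP5 to DUSP6, the nuclear and the cytoplasmic phosphatase specific for ERK, was -1.68, -1.20, -1.20, -1.26 and -1.16 in cocultivated libraries 1 to 5. In non-cocultivated libraries it was -2.09, -1.86, -1.75, -1.71 and -1.66. It was higher with coculture in all 5 batches, by 0.52 ± 0.12 (SE), but cocultivated library 1 lay among the non-cocultivated values (exact permutation p 0.0159, adjusted over the 5 pairs 0.0265). The ratio of DUSP4 to DUSP6 differed by 0.17 ± 0.09 (exact permutation p 0.135, adjusted p also 0.135), and by 0.23 without cocultivated library 1, where the adjusted p was 0.0298. For DUSP1 and DUSP10, the phosphatases for JNK and p38, the ratio was higher with coculture by 0.78 ± 0.25 (exact permutation p 0.0397, adjusted over the 5 pairs 0.0496). Non-cocultivated library 4 reached 5.73, inside the cocultivated range of 5.38 to 6.02. That call was lost in 8 of the 10 fits that left out 1 library (adjusted p 0.0694 to 0.0893), all but those without cocultivated library 1 or non-cocultivated library 4.

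ETV5 (ENSG00000244405) is an ETS transcription factor of the PEA3 subfamily whose transcription ERK induces. It was at 44.5, 41.1, 43.8, 41.3 and 38.5 TPM in cocultivated libraries 1 to 5, against 40.9, 36.8, 38.3, 40.2 and 38.5 TPM in non-cocultivated libraries. The groups overlapped in TPM, with cocultivated library 5 at the level of its batch partner, but not in CPM (counts scaled to library size with TMM factors, not corrected for length), where the cocultivated libraries lay at 93.2 to 95.3 and the non-cocultivated ones at 78.9 to 88.0. The log2 fold change from counts was 0.16 ± 0.04 (edgeR adjusted p 0.00490), an increase of 11.7% that had the same direction in all 5 batches. On log2(TPM + 0.1) values, where the median of all genes tested was -0.08 against -0.01 from counts, it was 0.10 ± 0.05. The limma adjusted p was 0.139, so ETV5 was not called there. The other PEA3 factors moved the other way: ETV1 fell by 0.93 ± 0.06 on the log2 scale (15.2 ± 2.00 TPM with and 30.0 ± 2.32 TPM without coculture, SD, edgeR adjusted p 1.64e-07). ETV4, named after its value was seen, had a log2 fold change of -0.17 ± 0.04 (edgeR adjusted p 0.00413).

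**Figure D3:**
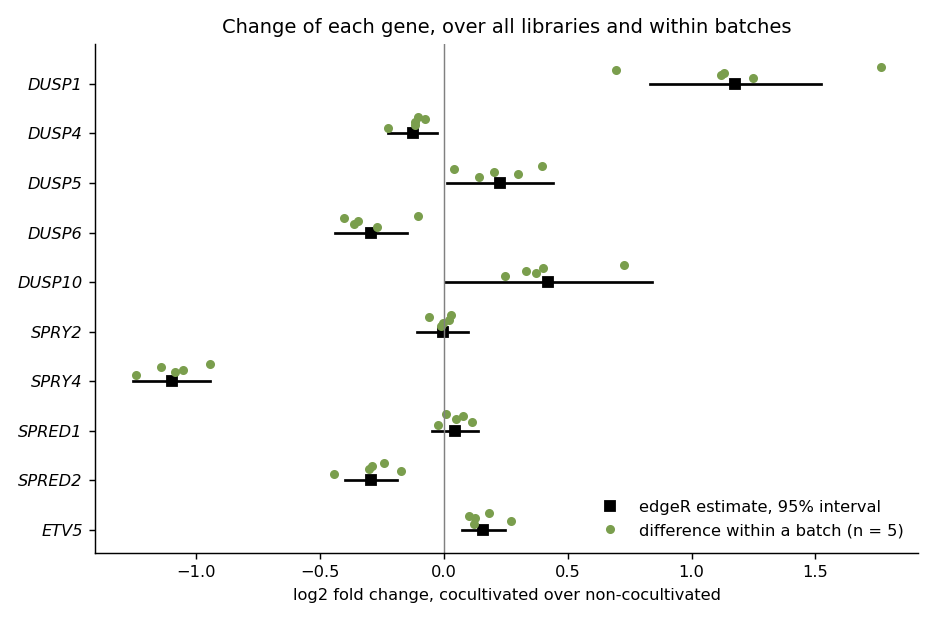
Log2 fold change, cocultivated over non-cocultivated (horizontal axis), of the 10 genes. Black squares are edgeR estimates with unadjusted 95% intervals, and green points are the differences of the 5 batches in log2 CPM. The 6 called genes have the same sign in all 5 batches, from DUSP1 at 1.18 to SPRY4 at -1.10, and SPRY2 lies at -0.01 with points on both sides of 0.

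The groups of 6 of the 10 genes did not overlap in CPM, 2 with the cocultivated libraries above and 4 with them below, and these were the 6 called genes. Among all genes tested 25.4% had groups that did not overlap. In TPM the groups of 5 of the 10 genes, all of these but ETV5, did not overlap, against 22.6% of all genes tested. In 8 of the 10 genes, all but SPRY2 and SPRED1, the direction was the same in all 5 batches. The share of all genes tested for which this holds was not counted, so the 8 cannot be set against a background. The order of the levels, which are comparable between genes in TPM because they are corrected for length, shifted in places. In cocultivated libraries DUSP4 (59.7 ± 2.08 TPM) and DUSP6 (58.3 ± 7.67 TPM) were the highest and overlapped. Without coculture DUSP6 (74.7 ± 6.01 TPM) and DUSP4 (68.6 ± 1.49 TPM) overlapped too, with DUSP6 above DUSP4 in all 5 libraries. ETV5 came next in both groups and overlapped with no other member. DUSP5, SPRED1, DUSP1 and SPRY2 formed an overlapping row with means of 29.3 to 32.1 TPM in cocultivated libraries. In non-cocultivated libraries SPRED1, SPRY2, DUSP5 and SPRED2 formed such a row at 27.0 to 31.6 TPM. DUSP1 stood at rank 6 in cocultivated and at rank 9 in non-cocultivated libraries, where it overlapped with SPRY4, and DUSP10 was last in both. The summed level of the 10 genes was 313 ± 9.48 TPM with coculture and 332 ± 11.2 TPM without it (SD, n = 5 each).

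The starts of DUSP1 and SPRY4, the members with the largest increase and decrease, are shown to set the letters before the start beside the changes. That of DUSP6 is shown too, which fell less than SPRY4 (log2 fold change -0.29, against -1.10). The sequences are the 250 bases before the RefSeq start on GRCh38.p14, at chr5:172771196-172771445 for DUSP1, chr5:142324248-142324497 for SPRY4 and chr12:89352502-89352751 for DUSP6, all on the minus strand and written 5′ to 3′ in the direction of transcription. Capitals mark matches, on either strand, to the cyclic AMP response element TGACGTCA, the AP-1 site TGANTCA, the ETS site CCGGAAG, the TATA box TATAAA and the CArG box bound by serum response factor.
DUSP1: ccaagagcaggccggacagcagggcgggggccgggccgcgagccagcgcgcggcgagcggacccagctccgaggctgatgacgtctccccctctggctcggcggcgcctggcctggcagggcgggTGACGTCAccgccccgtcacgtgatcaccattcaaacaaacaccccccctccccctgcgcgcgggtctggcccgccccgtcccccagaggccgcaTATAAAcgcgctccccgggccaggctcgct
SPRY4: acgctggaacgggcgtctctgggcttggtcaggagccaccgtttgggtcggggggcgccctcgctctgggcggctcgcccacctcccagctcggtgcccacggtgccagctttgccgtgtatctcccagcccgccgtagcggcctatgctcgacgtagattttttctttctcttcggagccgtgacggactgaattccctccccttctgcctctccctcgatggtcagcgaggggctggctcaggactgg
DUSP6: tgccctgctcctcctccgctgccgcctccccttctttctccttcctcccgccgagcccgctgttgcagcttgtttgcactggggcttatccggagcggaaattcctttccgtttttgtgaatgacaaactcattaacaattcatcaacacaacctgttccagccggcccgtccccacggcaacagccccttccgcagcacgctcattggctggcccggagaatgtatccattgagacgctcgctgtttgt

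Of these motifs, the DUSP1 window held 1 cyclic AMP response element, whose first base lay at position -125 counted from the start, and 1 TATA box, whose first base lay at position -30. Among all 35116 windows of that length in the RefSeq table, 1.65% held the cyclic AMP response element and 10.7% the TATA box. The SPRY4 and DUSP6 windows held none of the 5 motifs, of which the AP-1 site occurred in 6.57%, the ETS site in 8.52% and the CArG box in 1.16% of all windows. The GC box GGGCGG was also searched but is not in capitals. It had 4 matches in the DUSP1 window, 1 in that of SPRY4 and 0 in that of DUSP6, and occurred in 42.6% of all windows. In all, 11 windows of 7 of the 10 genes were searched. There was 1 other match to the 5 motifs in capitals, a TATA box at position -31 in 1 of the 2 windows of SPRED2. No window of DUSP4, DUSP5 or ETV5 was searched. The search left out 1 chromosome, so this does not mean that none of these genes had an entry. A match is a run of letters and was not tested for binding.

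**Figure D4:**
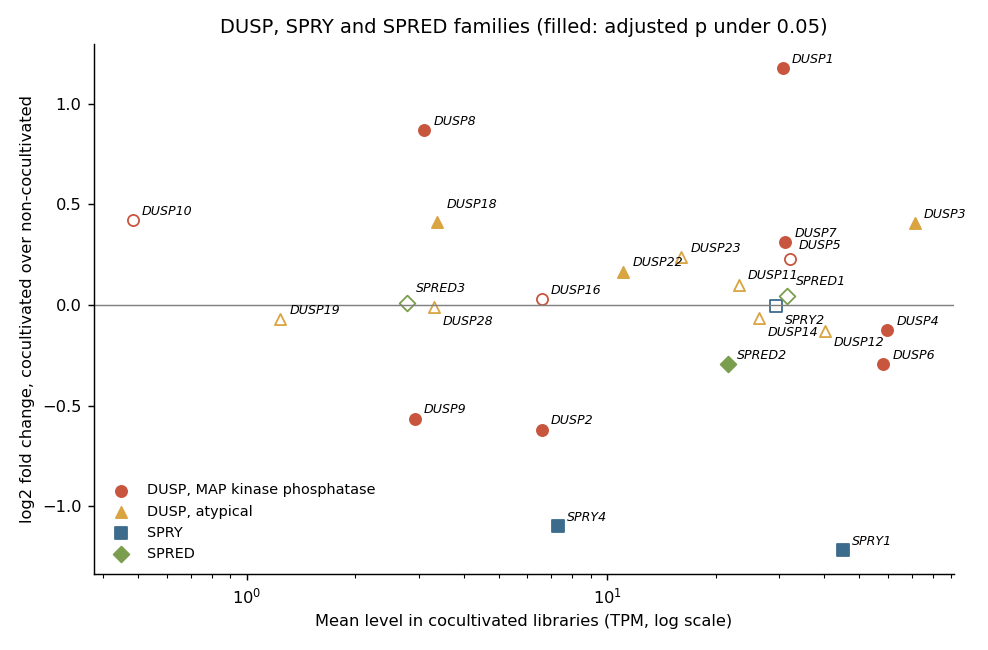
Log2 fold change, cocultivated over non-cocultivated (vertical axis), against the mean level in cocultivated libraries (TPM, log axis) for the DUSP, SPRY and SPRED genes with enough counts to be tested. Filled symbols were called at an edgeR adjusted p under 0.05. SPRY1 and SPRY4 are the 2 lowest points at -1.22 and -1.10, and DUSP1 is the highest at 1.18.

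The relatives of these genes moved both ways as well. Of the other 5 MAP kinase phosphatases, all tested, 2 rose and 2 fell, with a median log2 fold change of 0.03, where 33.6% of all genes tested were called. DUSP7, an ERK phosphatase of the cytoplasm like DUSP6, rose by 0.31 ± 0.04 (31.1 ± 2.16 TPM with and 26.4 ± 1.31 TPM without coculture, edgeR adjusted p 7.30e-05). DUSP8, which acts on JNK and p38, rose by 0.87 ± 0.14 (3.11 ± 0.600 against 1.52 ± 0.233 TPM, edgeR adjusted p 4.11e-04). Its level is uncertain, because the pseudogene DUSP8P5 was assigned 78 to 162 counts in cocultivated and 106 to 185 counts in non-cocultivated libraries. DUSP2, a nuclear phosphatase, had a log2 fold change of -0.62 ± 0.09 (6.59 ± 0.412 TPM with and 10.7 ± 0.820 TPM without coculture, edgeR adjusted p 1.09e-04). DUSP9, named after its value was seen, fell by 0.57 ± 0.11 (edgeR adjusted p 0.00134).

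SPRY1, which is not one of the 10 genes, was the most abundant Sprouty gene and fell with SPRY4. It was at 49.8, 43.6, 45.1, 51.2 and 36.0 TPM in cocultivated libraries 1 to 5, against 117, 113, 115, 109 and 107 TPM in non-cocultivated libraries. Its log2 fold change was -1.22 ± 0.06 (edgeR adjusted p 2.36e-08). SPRED3 had a log2 fold change of 0.01 ± 0.07 (edgeR adjusted p 0.927), and SPRY3 had too few counts to be tested.

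Of 9 other negative regulators of the path from receptor to ERK, 2 rose and 1 fell, with a median log2 fold change of 0.07; this is close to the 33.6% called among all genes tested. ERRFI1, an inhibitor of the EGF receptor, was at 198 ± 8.89 TPM with coculture and 117 ± 5.42 TPM without it (log2 fold change 0.84 ± 0.05, edgeR adjusted p 4.43e-08). RASAL2, which inactivates RAS, rose by 0.68 ± 0.06, and PEBP1 fell by 0.31 ± 0.05 on the log2 scale (edgeR adjusted p 4.28e-06 and 3.36e-04). In the cascade itself 6 of 20 genes rose and 3 fell, with a median of 0.09, where 17.9% of all genes tested were called as higher and 15.8% as lower. The RAS activator SOS2 rose by 0.32 ± 0.05, while the receptor adaptors GAB1 (-0.64 ± 0.11) and FRS2 (-0.29 ± 0.06) fell, with edgeR adjusted p of 3.23e-04, 4.18e-04 and 0.00141. The count of 6 depended on the setting: it was 10 with the batch as a block, 3 without batch 2 or batch 3, and 2 with library totals, with TPM values or without the filter on low counts.

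Transcripts often read as output of ERK, a list that holds the transcription factors ETV1 and ETV4 as well, rose in 6 and fell in 4 of 14 cases, with a median log2 fold change of 0.14, where 17.9% of all genes tested were called as higher and 15.8% as lower. Without batch 2 or batch 3, 3 were higher. The immediate early factor EGR1 was at 0.76, 1.97, 1.82, 2.24 and 0.54 TPM in cocultivated libraries 1 to 5, against 0.05, 0.24, 0.18, 0.16 and 0.07 TPM in non-cocultivated libraries. The groups did not overlap, but the level was low throughout, and libraries 1 and 5 were the lowest of both groups (log2 fold change 3.46 ± 0.48, edgeR adjusted p 1.03e-04). The ephrin receptor EPHA4 rose by 1.06 ± 0.12 (3.00 ± 0.625 TPM with and 1.69 ± 0.217 TPM without coculture, edgeR adjusted p 1.85e-05).

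The deposited tables also give each gene a length that is the mean over its transcripts weighted by their abundance, so that a shift between transcripts of unequal length would move it. No member passed the exact permutation test on that length after adjustment over the 10 genes. At an unadjusted p under 0.05 there was 1, SPRED2, with 3949 ± 71.9 bases in cocultivated and 4082 ± 42.7 bases in non-cocultivated libraries (SD, n = 5 each). It was shorter with coculture in all 5 batches (exact permutation p 0.0159, adjusted p 0.159). SPRY4 was at 4379 ± 129 bases with coculture and 4291 ± 28.8 bases without it (exact permutation p 0.238, adjusted p 0.615). DUSP1 has 1 listed transcript, so its length was the same, 2013 bases, in every library.

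Deviations from the group means were compared to see which genes varied alike between libraries of a group. The 10 libraries came from 5 batches and differed in depth, and the part of this in the likeness was not tested. Among the members the highest correlations were those of DUSP1 with SPRY2 (Pearson r 0.84) and SPRED1 with SPRED2 (0.77), and the lowest that of SPRY2 with SPRY4 (-0.59). Of 10576 other genes with a mean of at least 5 CPM, SYVN1 (0.99), TJAP1 and TSPYL2 (both 0.97) were most like DUSP6. Most like DUSP1 were SOCS2 (0.97), SLC6A8 and PSPH (both 0.92). For SPRY4 they were KRT15 (0.94), ACVR2B (0.91) and POGZ (0.90). These are the highest of 10576 correlations over 10 libraries for each member, and the level that such a search reaches by chance was not tested. SOCS2, an inhibitor of cytokine signalling, rose with coculture like DUSP1, by 0.94 ± 0.07 on the log2 scale (edgeR adjusted p 5.81e-07). SLC6A8 went the other way (-0.30 ± 0.04, edgeR adjusted p 1.18e-04), and PSPH was not called (-0.07 ± 0.05, edgeR adjusted p 0.270). SYVN1 (0.14 ± 0.07, edgeR adjusted p 0.138) was not called either.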

How the data were processed

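Polyadenylated RNA of PC3 cells was sequenced, per the labels' protocols. Each deposited table holds 1 library, with expected counts, TPM values and lengths per gene, in the column layout that RSEM writes. RSEM 1.3.3, Bowtie2 2.4.4 and bcl2fastq appear in the submitters' processing notes. The expected count is an estimated count of reads per gene, in which RSEM shares out reads that match several genes, per the file headers. Values in TPM, also deposited, are corrected for effective length and scaled to the same total in each library. For the genome build, annotation and strand setting, nothing is given in the sources used here. Of genes that overlap a member on the opposite strand in GENCODE v29, the largest count was 36.1, inside DUSP6, whose lowest count was 4716. DGKG, which overlaps ETV5 on the same strand, had up to 521 counts.

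Expected counts were rounded and fitted in R 4.3.3 with edgeR 4.0.16 (filterByExpr with minimum count 10 and minimum total 15, TMM, no batch term). Alternatives used DESeq2 1.42.0, limma 3.58.1 on TPM values, other scaling, no filter and libraries left out. Standard errors (SE) were derived from the F statistic, as the size of the log2 fold change over its square root, and 95% intervals use 8 degrees of freedom. Ratios of 2 genes used counts with 0.5 added. A count of 0 allows up to 3 counts, 0.0582 to 0.0768 CPM, for counting error only. The fitting procedure was tested on simulated data.

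Libraries were paired by batch number, which the labels state as a batch. Within batches 1 to 5, deviations from the group means correlated across genes at 0.33, -0.02, 0.07, 0.10 and 0.28. Chi-square per degree of freedom between libraries of a group was 4.97 to 54.4, so none is a duplicate. The 10 genes, the lists and the tests were chosen with earlier results of these data known. Besides the 10 genes, the text names the 3 genes of each list with the smallest p and the 3 genes most like DUSP6, DUSP1 and SPRY4.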

Additional observations from a re-analysis of the deposited data

Results flagged for a closer look

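In 4 of 67 sets of 5 values, 1 library stood apart, with a gap to its nearest neighbour of more than 0.71 of the range. Chance alone marks about 5% of such sets. SPRY2 was at 42.3 CPM in cocultivated library 1, against 46.3 to 46.9 CPM in the other cocultivated libraries. The log2 ratio of DUSP5 to DUSP6 was -1.68 in cocultivated library 1, against -1.26 to -1.16 in the other cocultivated libraries. The log2 ratio of SPRY2 to SPRY4 was -0.41 in non-cocultivated library 1, against -0.05 to 0.07 in the other non-cocultivated libraries. These 3 values are all of batch 1. The length of DUSP4 was 5532 bases in cocultivated library 3, against 5540 to 5543 bases in the other cocultivated libraries.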

How the results depend on the processing

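DUSP1, DUSP6, SPRY4 and SPRED2 kept their direction and their call in all 22 alternatives, with log2 fold changes of 1.04 to 1.32, -0.36 to -0.26, -1.19 to -1.04 and -0.35 to -0.26. On TPM values 1 member was higher and 4 were lower, with a pseudocount of 0.1 or 1. Of all genes, 1733 or 1740 were higher and 2956 or 2975 lower there. With 1 library or 1 batch left out, 2 to 3 members were higher and 3 to 4 lower, and 2116 to 3041 genes were higher and 1702 to 2675 lower. DUSP4 was not called without the filter on low counts either (edgeR adjusted p 0.0790), nor without batch 2, 3, 4 or 5 (adjusted p 0.0534 to 0.116). DUSP5 was also called without batch 1 (adjusted p 0.0334). The log2 fold change of SPRY2 was -0.035 to 0.020 with libraries left out. That of SPRED1 was -0.01 with library totals (-0.0100) and with TPM values (-0.0054 at either pseudocount). With the batch as a replicate block, DUSP5 was called and no other call among the 10 genes changed, 44.4% of all genes were called, and 1 of 9 atypical DUSP genes was lower, against 0 without it. The within-batch differences of the ratios keep their size under the block (0.52, 0.78, 1.09 and 0.34 for DUSP5/DUSP6, DUSP1/DUSP10, SPRY2/SPRY4 and SPRED1/SPRED2), but 5 pairs cannot give an exact p below 0.0625, which is 0.0781 when adjusted. With 1 library left out, the difference was 0.12 to 0.23 for DUSP4/DUSP6 and 0.64 to 0.98 for DUSP1/DUSP10. The difference in length ranged from -48.6 to 7.73 bases for DUSP6 and from -99.6 to 30.6 bases for DUSP10 with 1 library left out, and for SPRY2 it was 2.77 bases in effective length. The counts of ERK cascade genes higher were 6 with all libraries and 2, 3 or 10 under the settings named above. Of atypical DUSP genes 3 were higher, but 1 with TPM values, and 0 were lower, but 1 with DESeq2, library totals, TPM values or without cocultivated library 5. Of ERK output genes 6 were higher, but 3 without batch 2 or 3, and of JNK and p38 genes 3 were higher, but 1 without batch 2. The cause of these changes was not tested. Depth limits DUSP10, at 19 to 47 counts.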

Other observations

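The genes listed for the JNK and p38 branch include kinases upstream of JNK and p38, the kinases on which DUSP1, DUSP8 and DUSP10 act. Of these 15 genes 3 were called as higher and 4 as lower, with a median log2 fold change of -0.0023. Among all genes tested 17.9% were called as higher and 15.8% as lower. MAP3K5, the stress kinase ASK1, was at 2.23, 1.90, 1.65, 2.12 and 1.31 TPM in cocultivated libraries 1 to 5, against 6.50, 5.50, 5.24, 5.39 and 4.35 TPM in non-cocultivated libraries. The groups did not overlap (log2 fold change -1.48 ± 0.12, edgeR adjusted p 1.14e-06). MAP2K6, which activates p38, was at 4.87 ± 1.08 TPM with coculture and 9.65 ± 1.23 TPM without it (log2 fold change -1.11 ± 0.15, edgeR adjusted p 1.15e-04). MAPK11, the p38 beta kinase, was at 2.53 ± 0.217 TPM with coculture and 1.93 ± 0.133 TPM without it (0.41 ± 0.09, edgeR adjusted p 0.00457).

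Of the small atypical DUSP phosphatases, most of which are not known for a role in ERK feedback, 9 of 14 had enough counts to be tested, and 3 of these rose and none fell by edgeR's test, with a median of 0.10, where 33.6% of all genes tested were called. With an unadjusted p under 0.05, 1 was lower, DUSP12, named after its value was seen (-0.13 ± 0.05, edgeR adjusted p 0.0620). DUSP3 was at 71.1 ± 2.58 TPM with coculture and 57.0 ± 2.01 TPM without it (0.41 ± 0.04, edgeR adjusted p 6.85e-06). DUSP18 and DUSP22 had log2 fold changes of 0.41 ± 0.08 and 0.17 ± 0.05 (edgeR adjusted p 0.00165 and 0.0192).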
